A study of Rattus norvegicus with 12 samples.

Results

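miR-143, miR-145, miR-214 and miR-126 are miRNAs of the vessel wall and of connective tissue, and their signals in rat milk whey and serum are described here. They were taken by name (rno-miR-143, rno-miR-145, rno-miR-214 and rno-miR-126) and are 4 of the 388 rat mature miRNAs on the array. Whey was prepared from milk of 3 F344/N dams 2, 9 and 16 days postpartum by spinning out fat, cells and casein, and serum was prepared from blood of the inferior vena cava on day 21, at weaning. No experimental treatment was compared. For milking, dams were separated from their litters beforehand, injected with oxytocin and lightly anesthetized, and blood was taken under deep anesthesia. Replicates 1 to 3 were the same rats at every time. Each of the 12 arrays held 70 ng of total RNA of 1 rat, so that a signal is a share of the RNA labelled and not an amount per volume of fluid. Whey and serum hold no intact tissue, and less RNA from a cell type cannot be told apart from fewer cells of that type giving RNA to the fluid.

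miRNAs are short RNAs that pair with mRNAs mainly through the seed, and lower the output of those mRNAs. miR-143 and miR-145 are cut from neighbouring hairpins of 1 primary transcript, are abundant in smooth muscle and fibroblasts, and are known for their part in the contractile state of smooth muscle. miR-214 comes from a long noncoding transcript that also carries miR-199a and is typical of mesenchymal cells. miR-126 lies in an intron of Egfl7, is typical of endothelium and is also found in platelets, and its hairpin gives a second arm, miR-126*.

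The mature sequences of RefSeq (build GRCr8) are shown for the members and for the miRNAs made with them, with the seed (bases 2 to 8) in capitals, because the results differ between RNAs cut from the same transcript.
rno-miR-143: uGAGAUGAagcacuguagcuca
rno-miR-145: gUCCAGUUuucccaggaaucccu
rno-miR-214: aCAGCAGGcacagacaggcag
rno-miR-199a-3p: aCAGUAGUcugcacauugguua
rno-miR-199a-5p: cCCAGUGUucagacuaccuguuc
rno-miR-126: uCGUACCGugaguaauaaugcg
rno-miR-126*: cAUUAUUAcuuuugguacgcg

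The 4 members had 4 different seeds, and no other rat mature miRNA of the RefSeq table carried any of them. miR-143 lies at chr18:57371373-57371394 on the minus strand, with 1317 bases between it and miR-145 at chr18:57370033-57370055. miR-214 lies at chr13:77121713-77121733 on the plus strand, 5397 bases from miR-199a-3p. miR-126 lies at chr3:29813219-29813240 on the plus strand, with 16 bases between it and miR-126*. All are in noncoding hairpins, and none of these positions overlaps another.

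Each member was read by 2 probes that pair with its 3′ part and differ by 1 base in length, with 10 spots each. The probes are shown because length and covered bases bear on how bright a probe can be, and the capital marks the base that the longer probe adds.
miR-143, 19 bases: tgagctacagtgcttcatC
miR-145, 14 bases: agggattcctgggA
miR-214, 15 bases: ctgcctgtctgtgcC
miR-126, 18 bases: cgcattattactcacggT

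Every probe matched 1 mature rat miRNA of RefSeq and no other. The levels of different miRNAs were therefore not ranked against each other, and comparisons, ratios included, are between arrays.

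Summed over all miRNAs, the total signal ranged from 21620 to 25457 on the day 2 arrays, from 70020 to 106279 on the day 9 arrays, from 76070 to 119402 on the day 16 arrays and from 89211 to 160603 on the serum arrays. The scanner software detected 109 to 125, 121 to 136, 122 to 140 and 145 to 165 miRNAs. Day 2 and day 9 whey shared 1 slide, and day 16 whey and serum shared the other, so that slide and group cannot be told apart in any other comparison. Markers were checked against the labels: epithelial miRNAs (the miR-200 family, miR-31, miR-203 and miR-205) had a summed signal from 6446 to 11756 on day 16 and from 184 to 590 on the serum arrays. Among them miR-203 went the other way, at 16.9 to 21.7 in serum and at most 12.85 in whey. The erythroid miRNAs miR-451 and miR-144 summed to at most 9.97 in whey and to 11968 to 27733 in serum. That serum sum is almost wholly miR-451, because miR-144 was detected on no array and read 0.81 to 5.06 in serum. For the tests, quantile normalization over all arrays was applied to the total signals, values under 1 were raised to 1, and log2 was taken. limma compared the 188 miRNAs that any array detected, with Benjamini-Hochberg adjustment over these 188. Of the members, miR-143, miR-214 and miR-126 passed this filter and miR-145 did not.

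The 4 members split into 4 patterns. miR-143 was detected on all 12 arrays and its normalized signal was lower in serum than in whey. miR-145 was detected on none. miR-214 lay near the background in whey and was bright in serum, and miR-126 was detected in serum only. Counting a miRNA as detected in a fluid where at least 1 array called it, 2 of the 4 members were detected in whey and 3 in serum. For scale, a single whey array detected 109 to 140 of all 388 miRNAs, and a single serum array 145 to 165. With 4 members chosen by name, the counts are a description and were not tested against that background.

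**Figure D1:**
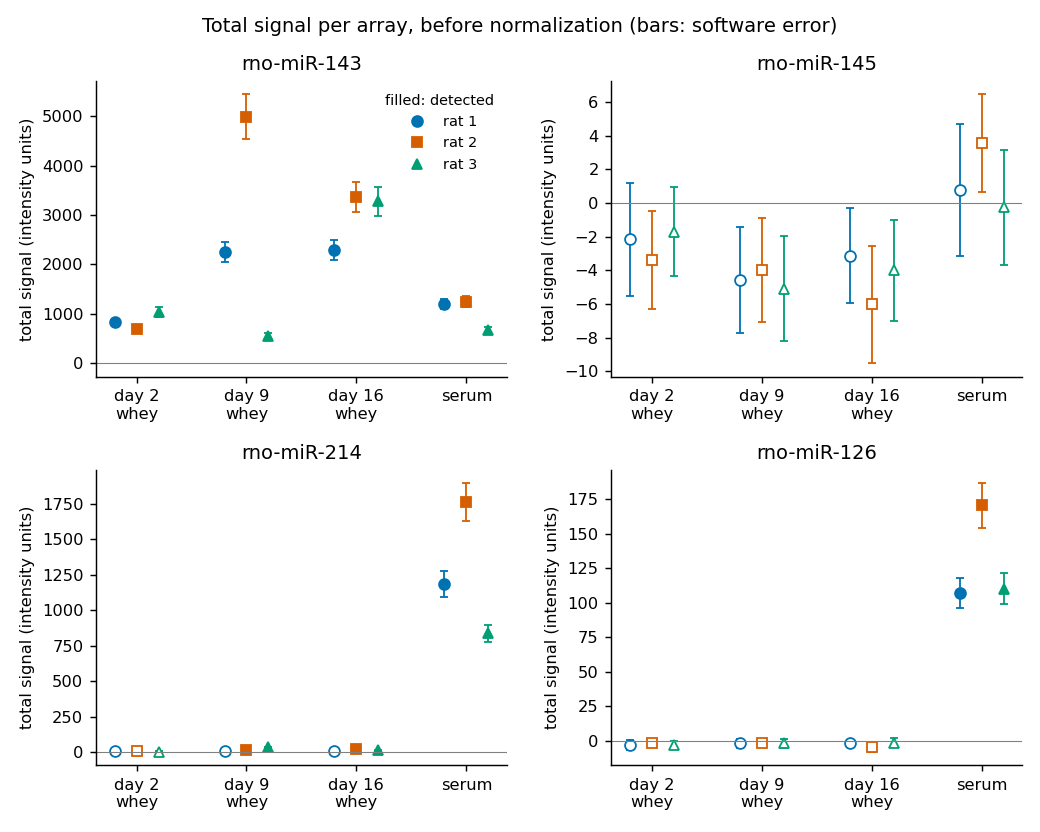
Total signal of the 4 members on each array before normalization (vertical axis, intensity units, a scale of its own in each panel), by group and rat; filled points were detected and bars are the error that the scanner software gives for the total. miR-143 was detected everywhere and reached 4987 on 1 day 9 array, miR-145 stayed between -6.03 and 3.56, and miR-214 and miR-126 stood out in serum.

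miR-143 gave total signals before normalization of 825, 690 and 1037 in day 2 whey of rats 1, 2 and 3. In day 9 whey the signals were 2251, 4987 and 558, in day 16 whey 2297, 3368 and 3274, and in serum 1196, 1243 and 666. The day 16 arrays were above all day 2 and all serum arrays, the day 2 and serum arrays overlapped, and day 9 whey of rat 3 was the lowest of the 12. Both probes read lowest on that array and highest on day 9 whey of rat 2, and the longer was 5.74 to 6.74 times as bright as the shorter in serum and 6.16 to 7.39 times in whey. On the low day 9 array the longer probe read 740 and the shorter 100, and 59 of the 60 day 9 spots were well above background.

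After normalization, miR-143 was at 11.59 ± 0.23 in day 2 whey, 11.40 ± 0.20 in day 16 whey, 10.90 ± 1.45 in day 9 whey and 9.28 ± 0.22 in serum (log2, mean ± SD, n = 3 each). In that order, the 3 whey groups did not differ beyond their spread, and serum came last. Between day 2 and day 16 whey the difference was -0.19 ± 0.57 (log2, ± SE, adjusted p = 0.84 by limma), with a change of -0.16 to -0.20 in each rat. Quantile normalization assigns shared values by rank, and rats 1 and 3 both had 11.72 on day 2 and 11.52 on day 16. The likeness of the 3 changes is therefore no measure of how well they repeat. Before normalization the changes were 1.48, 2.29 and 1.66 in rats 1, 2 and 3. Day 9 differed from day 2 by -0.69 ± 0.57 (adjusted p = 0.38) and from day 16 by a day 16 minus day 9 difference of 0.50 ± 0.57 (adjusted p = 0.75). Serum was 4.36-fold below day 16 whey (log2 difference -2.12 ± 0.57, adjusted p = 0.0064), lower in 3 of 3 rats, and no serum array overlapped day 16 whey. Against day 2 whey the difference was -2.31 (adjusted p = 0.0039, 3 of 3 rats), and against day 9 whey -1.63 (adjusted p = 0.025, 3 of 3 rats, overlapping groups). The day 9 call was lost when day 9 whey of rat 1 or 2, or serum of rat 1 or 3, was left out (adjusted p = 0.066 to 0.097).

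The normalized fall in serum is a fall relative to the other miRNAs of the array. Without normalization, miR-143 in serum and day 2 whey differed by 0.25 ± 0.64 (log2, serum minus day 2, adjusted p = 0.75), opposite in sign to the normalized difference. On that scale, day 16 whey was 3.50-fold above day 2 whey (log2 difference 1.81, adjusted p = 0.032, 3 of 3 rats), while the median of all 188 tested miRNAs was itself shifted by 1.27. Of the 188, 55.3% were higher in day 16 whey on that scale. The serum to day 16 difference, within 1 slide, was -1.56 without normalization (adjusted p = 0.051), with 25.0% of the tested miRNAs called lower and 3 of 3 rats lower.

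**Figure D2:**
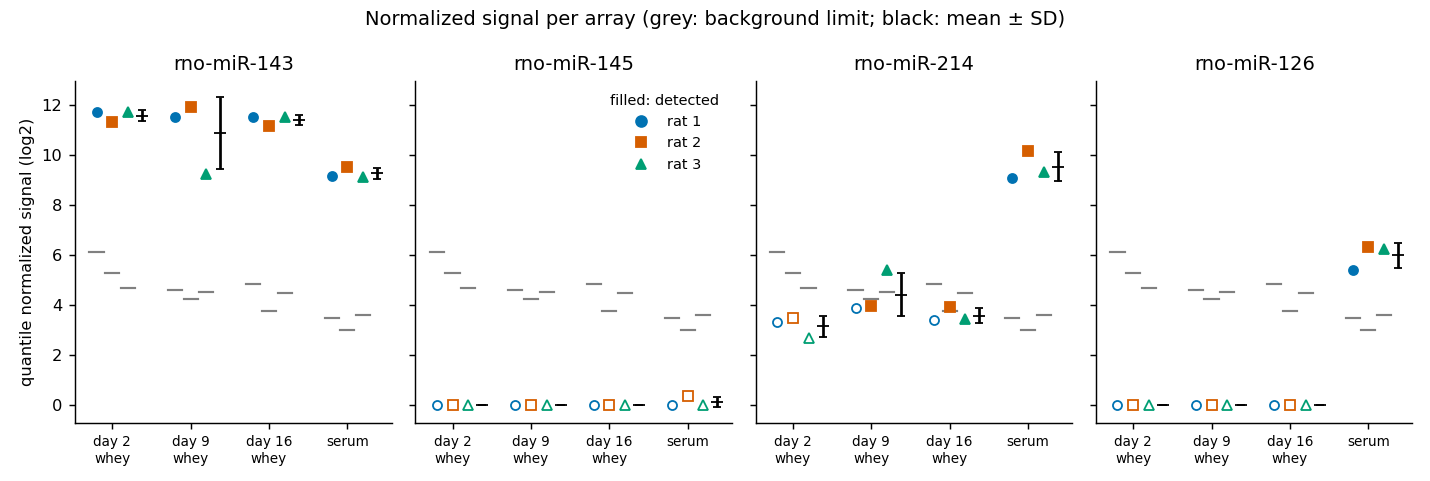
Quantile normalized signal (vertical axis, log2) of each member on each array by group, with rats as symbols, group mean ± SD in black and a grey dash for the array's background limit, the lowest signal of any miRNA with at least 0.5 of its spots well above background. miR-143 lay far above the limit on every array, whereas miR-214 lay at 2.69 to 5.40 in whey.

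Day 9 whey of rat 3 set the spread of miR-143 on that day. Its normalized signal was 2.48 below the mean of the other 2 rats (log2), and 5 of the 188 tested miRNAs, miR-143 included, were at least as far from the other 2 on that array. Without it, day 9 differed from day 2 by 0.14 and day 16 from day 9 by -0.33, both opposite in sign to the values above and both past no threshold (adjusted p = 0.66 and 0.38 by limma). The serum to day 9 difference became -2.46 without it (adjusted p = 4.3e-06). On the same array miR-133b, a muscle miRNA, read 5.50 against 25.6 and 43.0 in the other 2 rats. miR-451 read 9.97 there against 2.43 and 2.62, and the 8 epithelial miRNAs together summed to 7198 against 5560 and 7202, although miR-205 among them was the lowest of the 3 rats at 35.5 against 43.8 and 85.5. The part of these differences in the miR-143 value was not tested.

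The miRNAs whose normalized pattern over the 12 arrays was most like that of miR-143 were miR-125b-5p (Pearson r = 0.957), miR-195 (r = 0.932) and miR-204 (r = 0.887). These arrays share rats, slides and the normalization, and the values are a description. miR-195 shares the seed of the miR-15 and miR-16 family, and miR-125b is widespread in mesenchymal and epithelial cells. Over the 9 whey arrays alone the r values were 0.950, 0.843 and 0.908. All 3 were also lowest within day 9 whey on the array of rat 3, where miR-125b-5p read 32.8 against 80.2 and 118, miR-195 116 against 273 and 556, and miR-204 14.3 against 26.7 and 58.1 before normalization.

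miR-145, the partner of miR-143, was at background. Its total signals lay between -3.40 and -1.70 on day 2, between -5.08 and -3.99 on day 9 and between -6.03 and -3.13 on day 16. In serum of rats 1, 2 and 3 they were 0.765, 3.56 and -0.258. The serum arrays were thus above every whey array, yet no array detected miR-145, and only 1 of 180 whey spots and 1 of 60 serum spots were well above background. The longer of its probes has 14 bases and the shorter 13, the shortest among the members. Its level was not detectable at these signals, which does not show that it was absent.

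**Figure D3:**
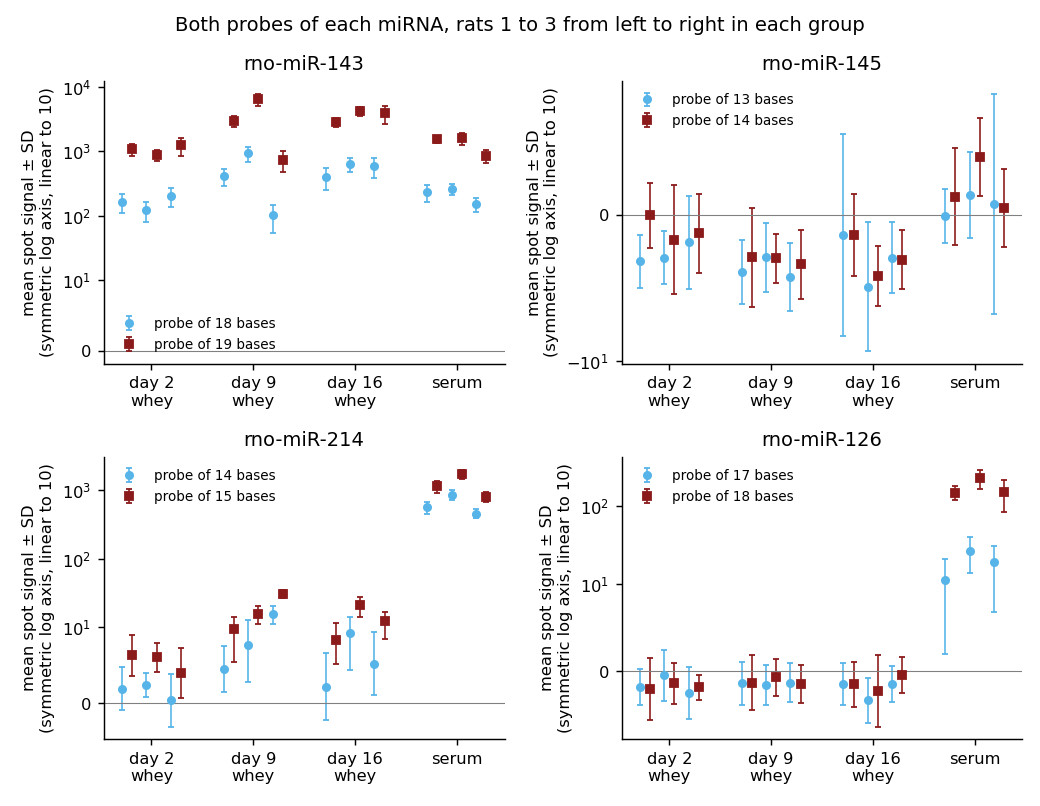
Mean signal ± SD over 10 spots of the shorter and the longer probe of each member (vertical axis on a symmetric log scale that is linear up to 10) for every array, rats 1 to 3 from left to right within a group. The longer probe was 5.74 to 7.39 times as bright for miR-143 on every array and 7.82 to 13.0 times for miR-126 in serum, and both miR-145 probes stayed around 0.

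miR-214 gave total signals of 4.61, 5.60 and 2.88 in day 2 whey, 9.45, 14.4 and 32.4 in day 9 whey, and 6.91, 19.8 and 11.1 in day 16 whey of rats 1, 2 and 3. In serum the signals were 1184, 1761 and 836. Serum and whey did not overlap. It was detected on 0 of 3, 2 of 3, 2 of 3 and 3 of 3 arrays, and 0, 19, 9 and 60 of 60 spots were well above background in the 4 groups. The background limits of the whey arrays were 11.9 to 23.9 on this scale, and every whey reading of miR-214 was under its array's limit except those of rat 3 on day 9 and rat 2 on day 16.

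Normalized, miR-214 was at 3.16 ± 0.42 in day 2 whey, 3.58 ± 0.30 in day 16 whey, 4.42 ± 0.85 in day 9 whey and 9.53 ± 0.58 in serum (log2, mean ± SD, n = 3 each). With a whey array counted at the higher of its reading and its background limit, serum was at least 34.9-fold above day 16 whey (log2 difference as fitted 5.95 ± 0.44, adjusted p = 6.4e-07 by limma, 3 of 3 rats). By the same rule it was at least 17.9-fold above day 2 whey (adjusted p = 4.7e-07) and at least 27.6-fold above day 9 whey (adjusted p = 2.4e-06), again in 3 of 3 rats. The p-values are of the fitted differences, 6.37 and 5.11 for these 2, and not of the bounds, which were not tested. The serum to day 16 difference is within 1 slide.

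Among the whey days miR-214 differed between day 9 and day 2 by 1.26 ± 0.44 (log2, adjusted p = 0.041 by limma), higher in 3 of 3 rats, with both group means under the mean limits of their arrays, 4.46 and 5.37. No fold is therefore given. The call was lost with the rat as a block (adjusted p = 0.055) and within the slide alone (1.16, adjusted p = 0.12), and without day 9 whey of rat 3 the difference was 0.78 (adjusted p = 0.11). Leaving out any day 2 array, rat 1 or 3 of day 16 whey or rat 1 or 3 of serum also ended it, and over all alternatives the adjusted p ran from 0.0085 to 0.58. Day 16 differed from day 2 by 0.42 (adjusted p = 0.47) and from day 9 by -0.84 (adjusted p = 0.29). The array with the highest miR-214 in day 9 whey was that of rat 3, on which miR-451 was also highest, and in day 16 whey that of rat 2, on which miR-223 of myeloid cells read 588 against 23.9 and 47.0 but miR-451 was the lowest of the 3, at -0.23 against 1.72 and 1.96. The part of blood cell miRNAs in these whey readings was not tested.

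miR-199a-3p, cut from the same transcript as miR-214, was also brightest in serum. It gave 6.14, 4.73 and 4.33 in day 2 whey, 8.78, 10.8 and 30.2 in day 9 whey, and 4.04, 14.2 and 6.70 in day 16 whey of rats 1, 2 and 3. In serum it gave 614, 858 and 348. The same array, day 9 whey of rat 3, was again the highest of the whey arrays. Serum was at least 16.8-fold above day 16 whey (adjusted p = 1.1e-06 by limma) and at least 8.30-fold above day 2 whey (adjusted p = 3e-06), where the p-values are again of the fitted differences and not of the bounds. The day 9 to day 2 difference was 0.70 (adjusted p = 0.24). The other arm, miR-199a-5p, was detected on 1 of 12 arrays, serum of rat 2, at 14.4. Its serum to day 16 difference of 1.95 had an adjusted p of 0.012, with both group means under their limits.

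**Figure D4:**
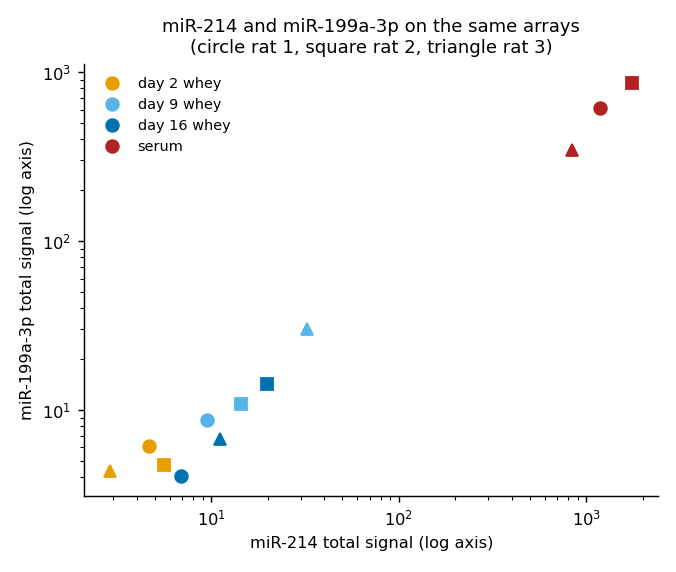
Total signal before normalization of miR-214 (horizontal, log axis) against miR-199a-3p (vertical, log axis), 1 point for each of the 12 arrays, coloured by group and shaped by rat. The serum arrays lie at 836 to 1761 and 348 to 858, apart from all whey arrays, of which day 9 whey of rat 3 is the highest on both axes.

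Over the 12 arrays the normalized patterns most like that of miR-214 were those of miR-10a-5p (r = 0.984), miR-199a-3p (r = 0.982) and miR-674-3p (r = 0.971). These values rest on the gap between serum and whey. Over the 9 whey arrays r was 0.701 for miR-10a-5p and 0.765 for miR-199a-3p, and miR-674-3p did not vary there. miR-10a-5p, encoded in a Hox gene cluster, read 841 to 1367 in serum and at most 8.87 in whey.

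miR-126 had negative total signals on every whey array, from -3.12 to -1.55 on day 2, -1.78 to -1.51 on day 9 and -4.57 to -1.23 on day 16. In serum of rats 1, 2 and 3 it gave 107, 170 and 110. It was detected on 0 of 9 whey arrays and 3 of 3 serum arrays, with 0 of 180 and 45 of 60 spots well above background. The longer probe carried the serum signal at 148, 226 and 148, and the shorter read 11.4, 26.8 and 19.0.

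Normalized, miR-126 was at 5.99 ± 0.49 in serum (log2, n = 3), with rats at 5.42, 6.31 and 6.23, and at the floor of 0 in whey. With whey at its background limits, serum was at least 3.1-fold above day 16 whey, at least 2.89-fold above day 9 whey and at least 1.53-fold above day 2 whey, with adjusted p of 2.5e-09, 2.7e-09 and 3.7e-09 by limma. These p-values are of the fitted difference of 5.99 from whey arrays that were all at the floor, with no spread, and not of the bounds. miR-126 also passed the filter only through its serum arrays, so that the fit could not have placed it lower in serum. The bound is lowest against day 2, where the mean limit was highest, at 5.37 (4.69 to 6.12). Among the whey days nothing could be compared. miR-126*, the other arm, was detected on none of the 12 arrays and read -0.877 to 1.73 in whey and 1.85 to 2.82 in serum. It has 1 probe, of 21 bases.

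The patterns most like that of miR-126 were those of miR-674-3p (r = 1.0 when rounded), miR-150 (r = 0.998) and miR-335 (r = 0.994), all at background in whey and detected on 3 of 3 serum arrays. miR-150, a lymphocyte miRNA, read between 366 and 469 in serum and at most 1.35 in whey. With whey at the floor, r reflects only which miRNAs were detected in serum alone.

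Read against the whole array, calls in these members were not uncommon. Between serum and day 16 whey, 36.2% of the 188 tested miRNAs were higher in serum and 38.8% lower, and of the 3 members tested, 2 were higher and 1 lower. miR-126, counted as higher, was tested only because serum arrays detected it. Between serum and day 2 whey the shares were 39.9% higher and 43.1% lower, and between serum and day 9 whey 36.2% and 38.3%, again with 2 members higher and 1 lower. Between day 9 and day 2 whey 28.2% were higher and 17.0% lower, and 1 member, miR-214, was higher, a call that the rat as a block ended (adjusted p = 0.055) and that was made against a group in which no array detected it. Between day 16 and day 2 whey 32.4% were higher and 22.9% lower, and between day 16 and day 9 whey 7.45% differed in either direction, with 0 members called by limma in both, also at an unadjusted p under 0.05. Without normalization, 45.7% exceeded day 16 whey in serum, miR-214 and miR-126 among them.

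**Figure D5:**
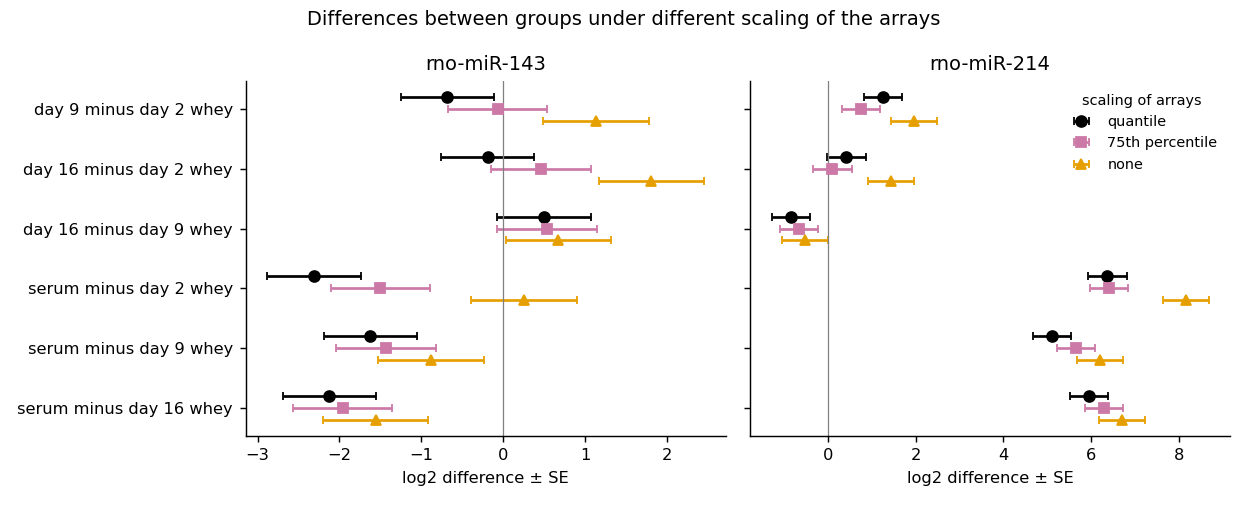
Log2 difference ± SE (horizontal axis) of miR-143 and miR-214 for 6 comparisons of groups (rows), with arrays quantile normalized, scaled by the 75th percentile over miRNAs found on every array, or not normalized. miR-143 crosses 0 between scalings for serum minus day 2 whey (-2.31 and 0.25), whereas the serum differences of miR-214 all lie above 5.

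A ratio of 2 miRNAs within an array does not change with scaling. The log2 ratio of miR-214 to miR-143 before normalization was higher in serum than in the mean of the same rat's whey arrays by 7.75 on average, 7.26 to 8.10 in the 3 rats. An exact two-sided permutation test that moves the serum label within each rat gave p = 0.0156, the smallest p its 64 arrangements allow. With miR-214 set to at least the background limit of each array, which was chosen after seeing the data, the difference was 6.69, or 103-fold, with rats at 6.25 to 7.39. After normexp background correction, with an offset of 50 added to every spot, it was 5.00 (32.1-fold). The offset by itself narrows differences of dim miRNAs, so that its part and that of the background cannot be told apart. Against day 16 whey alone, on the same slide, the ratio difference was 8.27, where the exact test cannot give a p below 0.25. This shows that miR-143 and miR-214 changed unequally between the fluids, and not that either was constant.

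The lists of other cell types showed where the members stood among miRNAs of like origin. Of 7 mesenchymal and fibroblast miRNAs on the array, which include miR-143, miR-145 and miR-214, 6 were tested between serum and day 16 whey. In limma 5 were higher in serum (36.2% of all tested miRNAs were) and 1, miR-143, was lower (38.8% of all), with a list median of 2.90 against 0.11 for all tested miRNAs (log2). The 5 were not independent. They were miR-214, miR-199a-3p and miR-199a-5p of the same transcript, and miR-140 and miR-140* of the same hairpin. Of these, miR-199a-5p was detected on 1 array only, a serum array. Without normalization 5 were higher and 0 lower, against 45.7% and 25.0% of all tested. miR-140, typical of cartilage and other mesenchyme, read between 275 and 514 in serum and between 33.4 and 78.6 on day 16. Of 6 muscle miRNAs 5 were tested, 2 were higher and 1, again miR-143, was lower, with a median of 1.80. Among the 5, miR-1 read negative on every whey array and was tested only because serum arrays detected it. miR-133b read 117 to 731 in serum against 19.8 to 28.2 in day 16 whey. The lists overlap in miR-143 and miR-145 and were not tested as sets.

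Of 4 endothelial and vessel miRNAs 2 were tested, and 1, miR-126, was higher in serum. miR-221, known from endothelium and many other cells, was detected on all 12 arrays, between 45.2 and 106 on day 16 and between 144 and 233 in serum, and passed the test without normalization but not after quantile normalization. miR-222 was detected on none. The shares over all tested miRNAs, 36.2% higher and 38.8% lower, also stand beside the counts that follow. Of 4 tested platelet miRNAs, miR-126 itself, miR-223 and miR-24 were higher in serum and miR-21 was lower. miR-191, also on that list, was detected on no array. The platelet list, miR-126 included, summed to between 9899 and 14868 in serum and between 2037 and 5331 on day 16, and its member miR-223, also a myeloid miRNA, read 6167 to 8760 in serum. Leukocyte miRNAs, of which miR-223 is also in the platelet list, were higher in 3 of 4 tested, and miR-142-3p, at 13.7 to 17.5 in serum and 4.04 to 22.6 on day 16, was not called, with summed signals between 6671 and 9180 in serum and between 28.0 and 621 on day 16. Liver miRNAs were higher in 2 of 2 tested, while miR-194 of that list was detected on no array. In these counts miR-122 (liver), miR-150 and miR-142-5p (both leukocyte) were detected on no whey array. They were tested only because serum arrays detected them, so that a lower call in serum was hardly possible. Epithelial miRNAs were lower in 7 of 8, and miR-203, the exception, read higher in serum before normalization and was not called. The part of blood cell miRNAs in the serum signals of miR-126 and miR-214 was not tested.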

How the data were processed

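The authors labelled RNA with 1 dye, hybridized it to Agilent rat miRNA arrays and extracted signals with Agilent Feature Extraction 9.5.3.1. The deposited scanner values are background-subtracted spot intensity and the total intensity of each miRNA, not normalized between arrays. A deposited quantile normalized table with 12 value columns that name no sample was not used here.

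Total intensities were quantile normalized over 12 arrays as in the methods, set to at least 1, converted to log2 and fitted with limma 3.58.1 in R 4.3.3 (4 group means, two-sided tests, adjusted p under 0.05). Tables were made in Python 3.11.15 with pandas 2.3.3 and scipy 1.17.1, and the fit was tested on simulated data. No 2 of the 66 pairs of arrays were identical. The number of arrays limits the precision. Replicate numbers mark the same rats and so pair the samples. Deviations of the same rat correlated at -0.0705 to 0.431 (median 0.0426), against a median of -0.034 between rats. The text names the members, miRNAs of the same transcripts, the 3 most similar patterns of each member and examples from cell type lists. Members and lists were chosen with earlier results of these data known. Alternatives were other scalings, floors, background correction, filters, blocks and tests, and leaving out each array. The background correction was normexp with an offset of 50 added to every spot, which narrows differences of dim miRNAs.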

Additional observations from a re-analysis of the deposited data

How the results depend on the processing

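The serum differences of miR-214 and miR-126 kept their direction and their side of the threshold under every alternative run. For miR-126, at the floor in whey and tested through its serum arrays, the main fit allowed no other direction. Against day 16 whey, with 1 choice changed at a time, the differences ranged from 3.15 to 6.71 for miR-214 and from 1.14 to 6.98 for miR-126 (log2). The low ends came from normexp background correction with its offset of 50.

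The other results depended on scaling or on single arrays. Without normalization, miR-143 differed by 1.14 between day 9 and day 2, 1.81 between day 16 and day 2, 0.25 between serum and day 2, -0.89 between serum and day 9, -1.56 between serum and day 16 and -0.73 between serum and the whey mean, miR-214 by 1.45 between day 16 and day 2 (adjusted p = 0.034), and 0 miRNAs were called by limma between day 16 and day 9, where 19 had an unadjusted p under 0.05. On the quantile normalized values the Tukey-Kramer test called 22 there, but its p is adjusted within each miRNA only and not over miRNAs. That count is therefore not on the same threshold as the limma counts. Scaled by the 75th percentile over miRNAs found on every array, miR-143 differed by 0.46 between day 16 and day 2 and by -1.43 between serum and day 9, and miR-214 by 0.76 between day 9 and day 2. Scaled to that of all miRNAs, miR-143 differed by 0.14 between day 9 and day 2 and 0.75 between day 16 and day 2, miR-214 by 0.97 between day 9 and day 2, and 27 miRNAs were called between day 16 and day 9. A floor of 5 gave 22 there. With all miRNAs fitted, with only the compared arrays and with the Tukey-Kramer test, the values stayed -1.63 for miR-143 (serum minus day 9) and 1.26 for miR-214 (day 9 minus day 2), past the threshold no longer, and normexp gave 0.17 for the latter. With the rat as replicate block, the pairing changed 1 call of the members, miR-214 between day 9 and day 2 (1.26, adjusted p = 0.055). Within the slide it was 1.16.

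Leaving out 1 array at a time gave -1.21 to 0.14 for miR-143 between day 9 and day 2, -0.33 to 1.02 between day 16 and day 9 and -2.46 to -1.12 between serum and day 9, where leaving out day 9 whey of rat 3 changed the sign of the first 2. miR-214 between day 9 and day 2 ranged from 0.78 to 1.54, and the miRNAs called between day 16 and day 9 from 8 (without day 9 whey of rat 1) to 20. The ratio of miR-214 to miR-143 was 5.00 after normexp background correction, 8.27 with day 16 whey alone and 7.58 to 8.0 without 1 rat, where the exact test cannot go below p = 0.0625. Requiring detection on all 3 arrays left 1 member in whey. The cause of these changes was not tested, except that fewer samples raise the smallest p. Signal over background limits miR-145 in both fluids, and miR-126 and miR-214 in whey.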
